A study of Mus musculus with 10 samples.

Results

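Slc10a2, Fabp6, Slc51a, Slc51b, Nr1h4, Nr0b2 and Fgf15 encode the bile acid carriers of the enterocyte, the bile acid receptor FXR and the FXR targets SHP and FGF15. These 7 genes were taken by name from the 54838 genes listed for each library, for a comparison of ileal with jejunal identity. Slc51a, Slc51b and Nr1h4 were well expressed in the jejunal crypts described here, so their presence alone does not mark the ileum. No ileal library was compared, so enrichment in the ileum was not tested for any of the 7. All 7 were found, and 6 of them passed the filter on low counts that left 14719 genes for testing. Gene positions are those of the GENCODE annotation of GRCm38.

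The libraries were made from jejunal crypts, 1 per animal, of 5 WT and 5 Arid3a cKO mice, to find what the deletion of the transcription factor ARID3A changes in the intestinal epithelium. The cKO mice carried floxed Arid3a alleles (Arid3a fl/fl) and VillinCre-ERT2, a tamoxifen-inducible recombinase driven by a promoter active in intestinal epithelial cells, so cells of other types keep the gene. WT and cKO mice were both given tamoxifen for 3 days and were taken 1 month after the first injection. Crypts were collected after the villi had been scraped off, so the libraries are bulk RNA of crypt preparations. Whether the WT mice carried the Cre transgene is not stated in the labels, and the animal identifiers begin differently in the 2 genotypes, so whatever that prefix stands for cannot be told apart from the genotype.

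Bile acids are reclaimed mainly in the ileum, where the apical transporter ASBT (Slc10a2) takes them up, the cytosolic ileal bile acid binding protein (Fabp6) carries them, and the heterodimer OSTα-OSTβ (Slc51a and Slc51b) exports them across the basolateral membrane. FXR (Nr1h4) is a nuclear receptor that binds bile acids and, as a dimer with RXR, induces Fabp6, Slc51a, Slc51b, the repressor SHP (Nr0b2) and the hormone FGF15, which travels to the liver and lowers bile acid synthesis. In the jejunum the uptake and binding genes are normally kept low, a state that depends on the transcription factor GATA4.

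The sequence upstream of Fabp6 and Slc51a is shown because they stand for the binding and export steps and because their levels differed widely here. The bases are those of RefSeq on GRCm38.p6, read 5′ to 3′ on the strand of the gene and ending before the start of the gene in both RefSeq and the GENCODE annotation, and capitals mark matches to the motifs described after them. The Fabp6 stretch is chr11:43601563-43601812 and the Slc51a stretch chr16:32487880-32488129, both on the minus strand.
Fabp6: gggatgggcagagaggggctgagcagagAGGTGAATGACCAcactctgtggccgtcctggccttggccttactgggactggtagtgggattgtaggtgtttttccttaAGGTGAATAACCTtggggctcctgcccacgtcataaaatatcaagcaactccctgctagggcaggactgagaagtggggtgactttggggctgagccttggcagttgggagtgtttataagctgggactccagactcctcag
Slc51a: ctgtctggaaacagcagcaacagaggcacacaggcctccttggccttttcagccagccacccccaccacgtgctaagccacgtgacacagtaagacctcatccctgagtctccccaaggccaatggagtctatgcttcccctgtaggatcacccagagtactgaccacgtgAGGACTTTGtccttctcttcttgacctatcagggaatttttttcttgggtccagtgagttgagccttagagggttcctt

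Both strands of the 250 bases before the RefSeq start were searched for 3 motifs in the 6 genes for which the table holds a promoter. The FXR motif IR-1 is an inverted repeat of a nuclear receptor half-site with 1 free base between the copies, and up to 2 mismatches in its 12 fixed letters were allowed. Fabp6 held 2 such matches, AGGTGAATGACCA at 222 to 210 bases before the start and AGGTGAATAACCT at 142 to 130 bases before it, each with 2 mismatches. Of 32851 promoters of the same length, 0.959% held a match. The HNF4 motif CAAAGTCCA with up to 1 mismatch was found in Slc51a, on the opposite strand as AGGACTTTG, at 79 to 71 bases before the start, and in 7.05% of promoters. No promoter of these genes held the LRH-1 motif TCAAGGTCA with up to 1 mismatch, which 6.35% of promoters held. The windows searched for Slc10a2, Slc51b, Nr1h4 and Nr0b2 held none of the 3 motifs. Of the 250 bases, 0 lay outside the GENCODE span of the gene for Nr1h4, 68 for Slc51b and 186 for Slc10a2. The sequence before the GENCODE start of Nr1h4 was therefore not searched, and that of Slc51b and Slc10a2 only in part. The matches marked in capitals do not overlap each other, and a match describes letters only.

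Expected counts summed to 27050455 to 28152743 per WT library and to 28314069 to 31053622 per cKO library, and no pair of libraries had identical values. Arid3a (chr10:79927043-79955018) had 55 to 81 counts in WT and 9 to 31 in cKO libraries, and its log2 fold change was -1.84 (SE 0.32, adjusted p = 0.00204). Unless another tool or a left-out library is named, adjusted p-values come from the quasi-likelihood test of edgeR, adjusted by the Benjamini-Hochberg method over the 14719 genes, of which 28.3% passed a threshold of 0.05, 15.6% being higher and 12.7% lower in cKO. The higher genes made up 55.1% of the calls with TMM factors and 27.7% when libraries were scaled by their totals alone, a scaling that moved the median log2 fold change of all genes from -0.03 to -0.16. Changes are differences in cKO minus WT on the log2 scale, and levels are CPM, counts scaled to TMM-normalised library sizes, or TPM, which also divides by transcript length and serves for comparing genes with each other.

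The export subunits and the receptor were well expressed in these jejunal crypts, whereas the uptake transporter and the binding protein were near the limit of detection and Fgf15 was not detected. Of the 6 genes tested, 2 were called, Nr1h4 and Nr0b2, both higher in cKO, beside 28.3% of all genes tested. Their log2 fold changes ran from 0.10 for Fabp6 to 1.20 for Slc51b, with a median of 0.66, where the median of all genes tested was -0.03. The count of 2 fell to 0 without cKO replicate 1 or 5 or WT replicate 1, 3 or 4, and to 1 without cKO replicate 2 or 4.

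**Figure D1:**
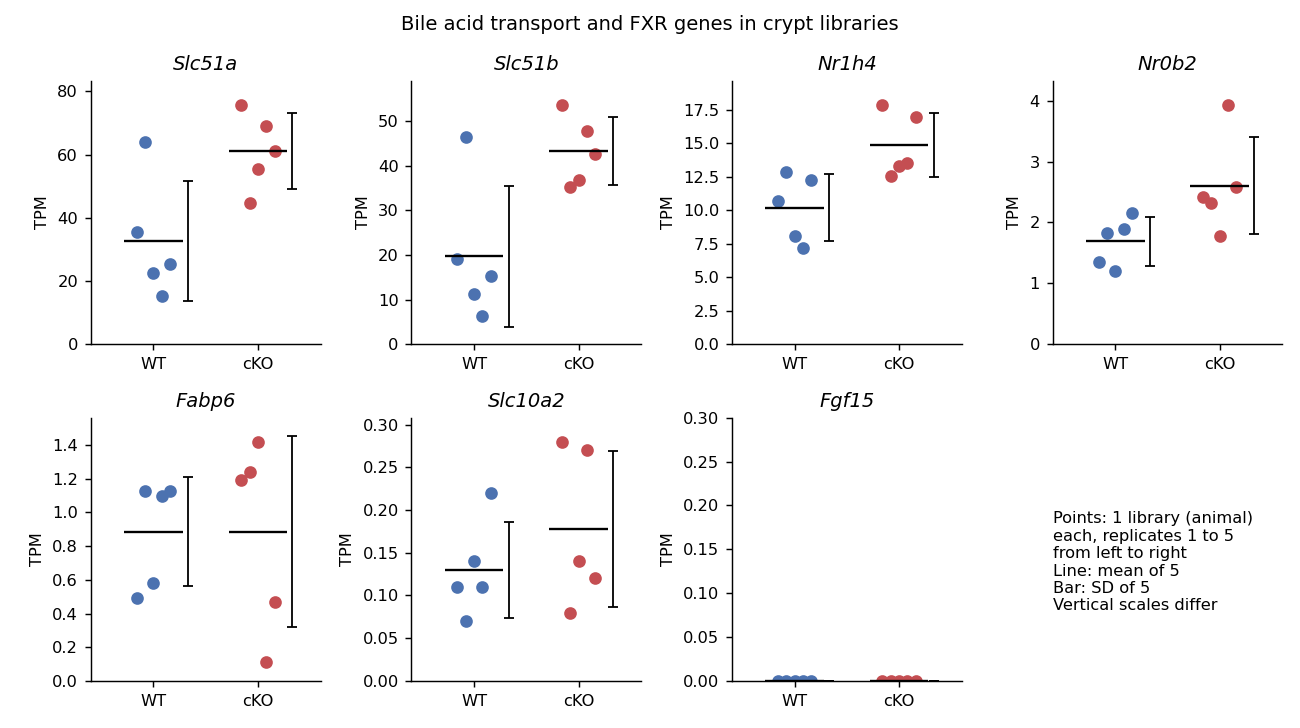
TPM of the 7 genes in each library, with WT libraries in blue and cKO libraries in red, each point being 1 animal, the line the mean of 5 and the bar the SD. Slc51a and Slc51b are higher in most cKO than WT libraries with WT replicate 2 reaching the cKO range, Fabp6 and Slc10a2 stay below 1.5 TPM, and Fgf15 is at 0 in all 10 libraries.

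Slc10a2 (ENSMUSG00000023073, chr8:5083219-5105351, minus strand), the apical uptake transporter, had 10, 7, 13, 10 and 21 counts in WT replicates 1 to 5 and 28, 8, 14, 25 and 11 counts in cKO replicates 1 to 5. The groups overlapped, with 2 cKO libraries above every WT library and 3 inside the WT range. Its level averaged 0.425 ± 0.202 CPM in WT against 0.598 ± 0.282 CPM in cKO (SD, n = 5 each), and the log2 fold change of 0.50 (SE 0.40, adjusted p = 0.366) had a 95% interval from -0.36 to 1.36. That interval holds both 0 and a rise of 1.36 on the log2 scale, so these counts do not tell them apart. It was 0.28 without cKO replicate 1 and 0.83 without WT replicate 5, neither passing, and 0.058 on TPM with a pseudocount of 1.

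Fabp6 (ENSMUSG00000020405, chr11:43596049-43601540, minus strand), the ileal bile acid binding protein, had 4, 10, 5, 9 and 10 counts in WT replicates 1 to 5 and 11, 11, 13, 1 and 4 counts in cKO replicates 1 to 5. The lowest and the highest value were both in cKO libraries, so the cKO range enclosed the WT range. The mean came to 0.264 ± 0.103 CPM in WT against 0.283 ± 0.181 CPM in cKO (SD, n = 5 each), with a log2 fold change of 0.10 (SE 0.52, adjusted p = 0.900) and a 95% interval from -1.02 to 1.23. Its sign was not fixed, since scaling by library totals gave -0.023. In TPM the means were 0.886 in both genotypes.

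Slc51a (ENSMUSG00000035699, chr16:32474504-32487879, minus strand) encodes OSTα and was the most abundant of the 7 genes. WT replicates 1 to 5 had 41.2, 76.6, 27.5, 18.5 and 34.0 CPM, and cKO replicates 1 to 5 had 95.9, 59.5, 75.5, 83.1 and 81.5 CPM. WT replicate 2 lay inside the cKO range, and the other 4 WT libraries were below every cKO library. The means of 39.6 ± 22.3 and 79.1 ± 13.2 CPM (SD, n = 5 each) gave a log2 fold change of 1.00 (SE 0.34, 95% interval 0.24 to 1.76), which did not pass the threshold (adjusted p = 0.0534). Without WT replicate 2 the log2 fold change was 1.39 and passed (adjusted p = 0.0018), DESeq2 called it with all 10 libraries (adjusted p = 0.0207), and over all leave-one-out fits and other settings the adjusted p ran from 0.0018 to 0.138. The two-sided exact permutation test on log2 CPM of this gene alone gave an unadjusted p of 0.0238, where 0.00794 is the smallest it can give.

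Slc51b (ENSMUSG00000053862, chr9:65412714-65422955, minus strand) encodes OSTβ, without which OSTα does not reach the membrane. WT replicates 1 to 5 had 8.77, 22.7, 5.19, 2.78 and 7.89 CPM, and cKO replicates 1 to 5 had 26.8, 18.5, 18.9, 22.7 and 22.1 CPM. The pattern was that of Slc51a, with WT replicate 2 inside the cKO range and WT replicate 4 the lowest of all. The means were 9.47 ± 7.78 and 21.8 ± 3.37 CPM (SD, n = 5 each), with a log2 fold change of 1.20 (SE 0.47, 95% interval 0.14 to 2.27, adjusted p = 0.0862) that did not pass. Without WT replicate 2 it was 1.83 (adjusted p = 0.00175), the 1 leave-one-out fit of 10 that passed. Over all leave-one-out fits and other settings the adjusted p ran from 0.00175 to 0.199. The unadjusted two-sided exact permutation p on log2 CPM was 0.0397.

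The subunits varied together between animals. Over the 10 libraries, the deviations of log2 CPM from the mean of each genotype had a Pearson correlation of 0.983 between Slc51a and Slc51b, as a description of libraries that share preparation and depth. The TPM ratio of Slc51a to Slc51b was 1.85, 1.38, 2.02, 2.42 and 1.67 in WT replicates 1 to 5 and 1.41, 1.26, 1.51, 1.45 and 1.43 in cKO replicates 1 to 5. Its mean was 1.87 ± 0.390 in WT and 1.41 ± 0.0898 in cKO (SD, n = 5 each, two-sided exact permutation p = 0.0397, unadjusted), and WT replicate 2 was the only WT library inside the cKO range. The last 567 bases of Slc51a overlap Pcyt1a on the opposite strand, which had up to 3630 counts, and 2140 bases of Slc51b overlap Rasl12, which had at most 22 counts. The strand setting of the counting is not given in the sources used here, so reads from these overlaps may have been assigned to either gene.

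Nr1h4 (ENSMUSG00000047638, chr10:89454234-89533585, minus strand) encodes FXR and rose in cKO. WT replicates 1 to 5 had 15.0, 19.3, 11.5, 9.67 and 19.6 CPM, and cKO replicates 1 to 5 had 27.4, 20.2, 21.0, 19.8 and 27.0 CPM. The groups did not overlap in CPM, as for 12.0% of all genes tested in this direction, although the highest WT and the lowest cKO library were almost equal, and in TPM WT replicate 2 at 12.9 exceeded cKO replicate 2 at 12.6. The means of 15.0 ± 4.47 and 23.1 ± 3.80 CPM (SD, n = 5 each) gave a log2 fold change of 0.62 (SE 0.19, 95% interval 0.20 to 1.05, adjusted p = 0.0336). Leaving out cKO replicate 1 or 5 or WT replicate 1, 3 or 4 ended the call, with log2 fold changes of 0.50 to 0.62 and adjusted p of 0.0570 to 0.0859.

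Nr0b2 (ENSMUSG00000037583, chr4:133553376-133556536, plus strand) encodes SHP, an FXR target that represses other nuclear receptors, and was also called higher. WT replicates 1 to 5 had 1.04, 1.51, 0.949, 1.41 and 1.89 CPM, and cKO replicates 1 to 5 had 2.05, 2.06, 1.54, 3.16 and 2.27 CPM. cKO replicate 3, at 44 counts, lay inside the WT range, and the other cKO libraries were above every WT library. The means of 1.36 ± 0.379 and 2.22 ± 0.592 CPM (SD, n = 5 each) gave a log2 fold change of 0.70 (SE 0.25, 95% interval 0.17 to 1.24, adjusted p = 0.0493). The call was lost in 8 of the 10 leave-one-out fits, all but those without cKO replicate 3 or WT replicate 5, with log2 fold changes of 0.54 to 0.75 and adjusted p of 0.0551 to 0.121.

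Fgf15 (ENSMUSG00000031073, chr7:144896531-144900953, plus strand), the hormone induced by FXR in the ileum, had 0 counts in each of the 10 libraries. A count of 0 allows up to 3 counts, or 0.1 to 0.113 CPM per library and 0.0105 CPM over the 10 libraries together, so Fgf15 was not detectable at this depth in either genotype. Such limits cover counting error only, since reads without molecular identifiers are not independent molecules. The antisense genes Gm26793 and Gm39119, which overlap it, had at most 1 and 0 counts.

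Per length, the order of the 7 genes was the same in the 2 genotypes. Mean TPM was 32.6 in WT and 61.2 in cKO for Slc51a, 19.7 and 43.2 for Slc51b, 10.2 and 14.9 for Nr1h4, 1.69 and 2.61 for Nr0b2, 0.886 and 0.886 for Fabp6, and 0.130 and 0.178 for Slc10a2. Slc51a was above Slc51b in all 10 libraries although their ranges overlapped in each genotype. Slc51b and Nr1h4 overlapped in WT, where WT replicate 4 had Nr1h4 above Slc51b, and Fabp6 and Slc10a2 overlapped in cKO through cKO replicate 4. Exporter and receptor transcripts were thus present where uptake and binding transcripts were scarce.

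Between animals, Nr1h4 followed the exporter genes more than Nr0b2 did in these libraries. Nr0b2 had 28 to 93 counts per library against 289 to 815 for Nr1h4, and the part of counting error in this contrast was not tested. Over the 10 libraries the correlation of the deviations within genotype was 0.776 between Nr1h4 and Slc51a and 0.801 between Nr1h4 and Slc51b, while for Nr0b2 it was 0.159 with Slc51a, 0.21 with Slc51b and 0.29 with Nr1h4. Among 10464 tested genes with a mean of at least 5 CPM, those whose deviations over the 10 libraries were most like Slc51a were Cyb5r3 (0.992), Hagh (0.987) and Spsb2 (0.985). For Slc51b they were Hagh (0.996), Acbd4 (0.993) and Egln3 (0.985), for Nr1h4 Gpr89 (0.978), 2310030G06Rik (0.974) and Idnk (0.974), and for Nr0b2 Gm14586 (0.94), Mettl7b (0.932) and Max (0.896). Hagh, a glyoxalase of methylglyoxal detoxification, was the one gene named for both exporter subunits. These values describe 10 libraries and were not tested.

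Between genotypes and among the WT libraries, the level of the exporter and receptor genes moved with that of general enterocyte genes. Of 12 enterocyte genes of all regions, such as the sucrase-isomaltase gene Sis, 11 were higher in cKO, beside 15.6% of all genes tested. The summed level of the 12 ran from 2370 to 6844 CPM in WT and from 8672 to 13460 CPM in cKO. Pooled over both genotypes, the deviations of their mean log2 level from each genotype's mean correlated at 0.853 with those of Slc51a, 0.875 with Slc51b and 0.64 with Nr1h4 (n = 10 libraries). The enterocyte mean spread from 6.60 to 8.15 in WT and only from 8.45 to 9.26 in cKO. Among cKO libraries the order was not kept. cKO replicate 3, with the lowest enterocyte mean in cKO, had a log2 level of Slc51a of 6.25, against 5.91 in cKO replicate 2. WT replicate 2, the WT library with the highest Slc51a and Slc51b, also had the highest enterocyte sum in WT, and WT replicate 4 had the lowest of all 3. In bulk crypts, fewer cells of a type and less RNA per cell cannot be told apart.

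Slc51a, Slc51b and Nr1h4, the members with a mean of at least 5 CPM, were also expressed relative to the mean log2(CPM + 0.5) of the 12 enterocyte genes, a centring chosen after the data were seen. That mean was 7.43 ± 0.594 in WT and 8.89 ± 0.305 in cKO (SD, n = 5 each), a difference of 1.46. The 12 genes were chosen with earlier results of these data known, so this difference is given as a description. Centring subtracts this difference from every gene alike, so any gene that changed by less turns negative, and the centred values are given as a description with no test. Relative to the enterocyte mean, Slc51b differed by -0.0048 and Slc51a by -0.33. The libraries overlapped for both, from -4.88 to -3.61 in WT and from -4.72 to -4.07 in cKO for Slc51b, and from -2.44 to -1.88 in WT and from -2.92 to -2.20 in cKO for Slc51a. Nr1h4 differed by -0.82, with cKO libraries from -4.92 to -4.02 and WT libraries from -3.86 to -3.04.

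**Figure D2:**
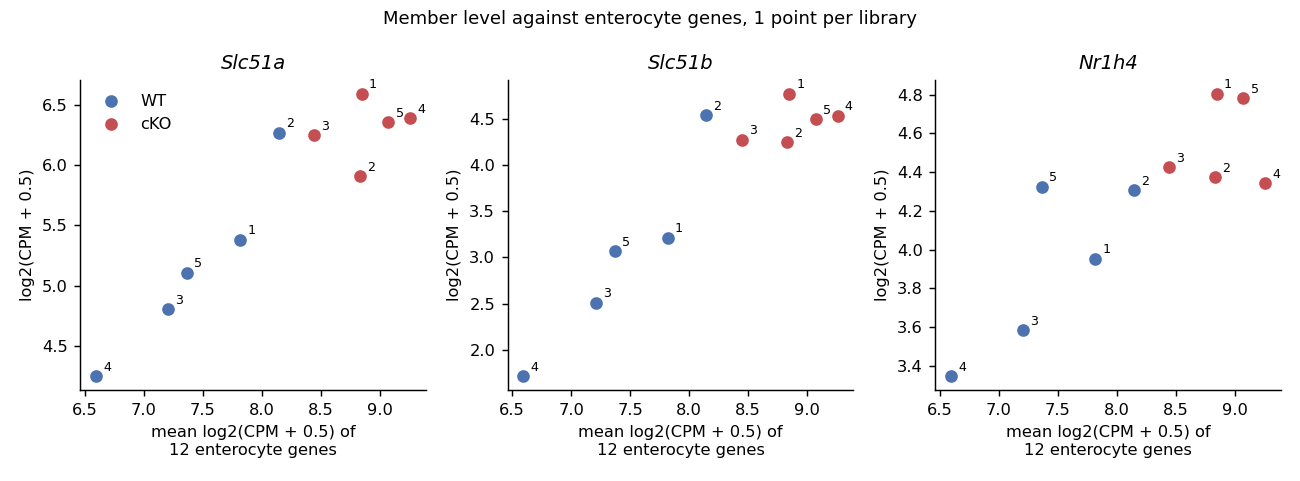
Log2(CPM + 0.5) of Slc51a, Slc51b and Nr1h4 against the mean log2(CPM + 0.5) of 12 enterocyte genes, with 1 point per library, WT in blue, cKO in red and replicate numbers beside the points. Slc51a and Slc51b climb with the enterocyte mean among the WT libraries, from WT replicate 4 to WT replicate 2, which lies at the level of the cKO libraries. Nr1h4 rises less from WT to cKO, for the same difference of 1.46 in the enterocyte mean.

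Other genes of bile acid handling were read from a list of 25, of which 19 were tested, 10 were higher, 1 was lower and 8 did not pass, with a median log2 fold change of 0.52. Over all genes tested, 15.6% were higher and 12.7% lower. Among nuclear receptors, the FXR partner Rxra was higher by 0.43 (SE 0.07, adjusted p = 0.00188) and the pregnane X receptor Nr1i2 by 0.66 (SE 0.14, adjusted p = 0.0061), whereas Rxrb was at -0.07, Nr5a2 at 0.14 and Vdr at 0.32, none passing, though Vdr passed without WT replicate 3 (0.42, adjusted p = 0.0307). Gpbar1, the membrane bile acid receptor, was too low to be tested.

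Of 5 efflux pumps, 3 were higher and 0 lower, beside 15.6% and 12.7% of all genes tested. Abcc2 (MRP2) went from 74.8 ± 31.4 to 210.4 ± 35.4 CPM (log2 fold change 1.49, SE 0.27, adjusted p = 0.00471), and Abcb1a from 82.1 ± 25.7 to 193.0 ± 25.2 CPM (1.23, SE 0.19, adjusted p = 0.00188). Abcg2 was higher by 0.57 (SE 0.10, adjusted p = 0.00185). Of the others, Abcc3 at 0.40 and Abcc4 at -0.60 did not pass (adjusted p = 0.0682 and 0.0507), but Abcc3 passed without cKO replicate 5 or WT replicate 2 (adjusted p of 0.0429 to 0.0468) and Abcc4 without cKO replicate 4 or WT replicate 1 or 2 (adjusted p of 0.0225 to 0.0477).

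Among the detoxifying enzymes, Cyp3a11, which oxidises bile acids and drugs, had 167.3 ± 109.8 CPM in WT and 740.8 ± 223.0 CPM in cKO (log2 fold change 2.15, SE 0.45, adjusted p = 0.00907). Ugt1a1, which glucuronidates bilirubin and steroids, was higher by 0.80 (SE 0.17, adjusted p = 0.00619). Of the synthesis and conjugation genes, Cyp27a1 went from 8.31 ± 2.23 to 21.7 ± 8.15 CPM (1.39, SE 0.28, adjusted p = 0.00583), Hsd3b7 was at -0.06, and Cyp7a1, the rate-limiting enzyme of hepatic synthesis, had 0 counts throughout. Baat was called at 1.87 (adjusted p = 0.0241) from a mean of 0.145 CPM in WT, and the call was lost without cKO replicate 5 or WT replicate 3, 4 or 5 (1.62 to 1.69, adjusted p of 0.0520 to 0.0670). Slc27a5 at 0.52 did not pass but did so without WT replicate 2 (0.81, adjusted p = 0.0433).

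Of the genes that act in FGF15 signalling, Fgfr4, its receptor, fell by 0.58 on the log2 scale, from 13.0 ± 3.78 to 8.66 ± 1.36 CPM (adjusted p = 0.0289), a call lost without cKO replicate 1, 3 or 5 or WT replicate 3 or 4 (adjusted p of 0.0613 to 0.0660). The co-receptor Klb averaged 0.385 CPM in WT and 0.542 CPM in cKO and did not pass (log2 fold change 0.48, adjusted p = 0.440). Malrd1, which affects FGF15 secretion, was higher by 0.58 (SE 0.13, adjusted p = 0.00769), while Fgf15 itself was undetected.

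**Figure D3:**
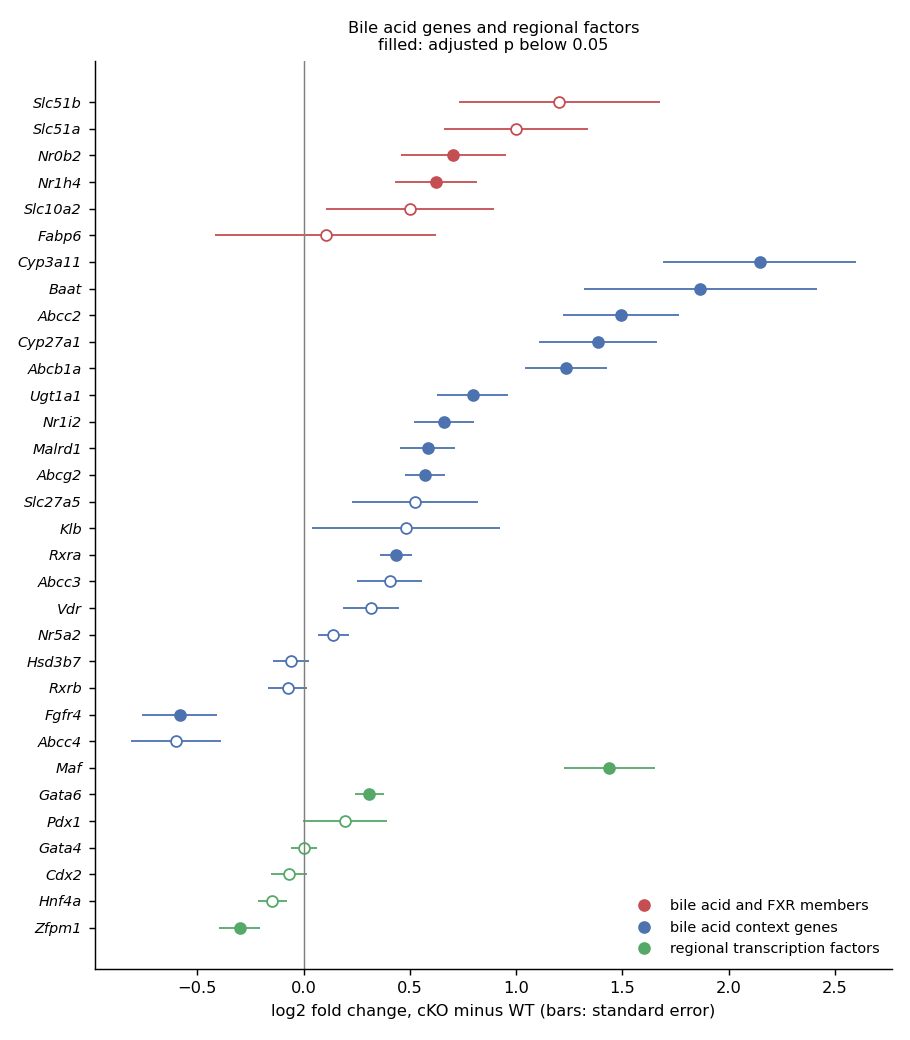
Log2 fold change in cKO minus WT, with its standard error, for the tested members (red), 19 further bile acid genes (blue) and regional transcription factors (green), filled where the adjusted p is below 0.05. Cyp3a11 at 2.15 is farthest to the right, the 6 members lie between 0.10 and 1.20, and Fgfr4 and Zfpm1 are the filled points to the left of 0.

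The transcription factors that set regional identity bear on the comparison of jejunum with ileum. Gata4, the jejunal factor, had 188 ± 10.8 CPM in WT and 188 ± 7.72 CPM in cKO (log2 fold change 0.0019, SE 0.06, adjusted p = 0.985), with no consistent sign across scalings. Gata6 was higher by 0.31 (SE 0.07, adjusted p = 0.00722), a call lost with scaling by library totals and on TPM with either pseudocount. Zfpm1, a GATA partner, fell by 0.30 on the log2 scale (adjusted p = 0.0343), a call lost without cKO replicate 1, 2, 3 or 5 or WT replicate 3, 4 or 5 (adjusted p of 0.0566 to 0.0801). Maf, an enterocyte factor, was higher by 1.44 (SE 0.21, adjusted p = 0.00165). Hnf4a, Cdx2 and the duodenal factor Pdx1 did not pass, with log2 fold changes between -0.15 and 0.19, although Hnf4a was called lower with DESeq2, with scaling by library totals and on TPM.

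Genes enriched in ileal and in jejunal enterocytes were both higher in cKO. Of 20 ileum-enriched genes outside the members, 17 were tested and 14 were higher, 0 lower, with a median log2 fold change of 1.21. They were led in level by Muc3 (2.37), Clec2h (2.11) and Aoc1 (0.86). All 20 jejunum-enriched genes were tested and higher, with a median of 1.61, among them Apoa4 (2.06), Slc5a1 (1.54) and Mttp (1.36). Against these medians and that of 1.42 for enterocyte genes of all regions, the members' median was 0.66 and Slc10a2 and Fabp6 were at 0.50 and 0.10. Over all genes tested, 15.6% were higher. The lists were chosen with earlier results of these data known, so their counts and medians are a description, and the difference between lists was not tested. The ileum-enriched count fell to 8 without cKO replicate 5 or without WT replicate 5, with Aoc1 uncalled without the latter (0.82, adjusted p = 0.0508), and the jejunum-enriched count fell to 12 without cKO replicate 5, where Apoa4 at 1.89 just missed the threshold.

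**Figure D4:**
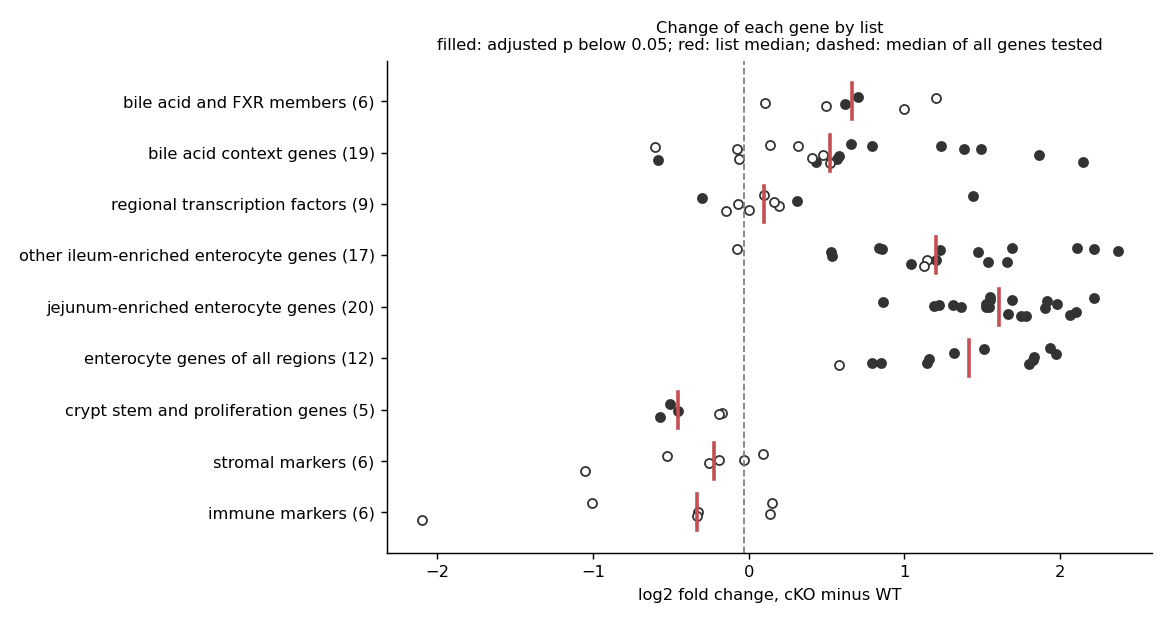
Log2 fold change in cKO minus WT of every tested gene by list, filled where the adjusted p is below 0.05, with the list median in red and the median of all genes tested as a dashed line, and the number of genes tested in brackets. The members' median of 0.66 lies below those of the ileum-enriched (1.21), jejunum-enriched (1.61) and general enterocyte genes (1.42), and above that of the crypt genes (-0.46).

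Markers of other cells and regions were read alongside the members. Of 5 crypt stem and proliferation genes 3 were lower, Axin2 at -0.46 and Olfm4 at -0.50 among them, beside 12.7% of all genes tested. The sum of the 5 ran from 4873 to 7872 CPM in WT and from 3815 to 5638 CPM in cKO. Removing cKO replicate 1, 3 or 5 or WT replicate 3 or 4 left 1 call, that of Axin2. The colon markers Car1 and Hoxb13 were at 0 counts in all libraries. Aqp4, the other gene of that list, had 95.3 ± 28.3 CPM in WT and 72.1 ± 11.0 CPM in cKO (SD, n = 5 each) and did not pass. The duodenal markers Muc6 and Cybrd1 did not pass either. Muc6 varied widely, from 0.59 to 47.2 CPM in WT and from 3.4 to 24.4 CPM in cKO (log2 fold change -1.33, SE 0.99). The duodenal sum was highest in replicate 4 of each genotype, and its bearing on the members was not tested. By edgeR, 0 of 6 stromal genes were called, with sums of 18.4 to 98.8 CPM in WT and 18.1 to 153.5 CPM in cKO, and 0 of 6 immune genes, with sums of 266.5 to 503.8 CPM in WT and 88.7 to 314.9 CPM in cKO. At an unadjusted p under 0.05 the counts were 0 and 2, DESeq2 called 0 and 1 and limma-voom 0 and 0, the immune gene called by DESeq2 being Cd74 (-1.01, adjusted p = 0.0510 by edgeR). Without cKO replicate 4, the library with the highest stromal sum, the stromal genes Col1a1 (-1.54), Col1a2 (-1.89) and Pdgfra (-1.54) were called lower (adjusted p of 0.0252 to 0.0468), and without cKO replicate 5 Cd79a was (-3.28, adjusted p = 0.0312), as Cd74 was without cKO replicate 2 (-0.80, adjusted p = 0.0201). The part of stromal and immune RNA in the members' values was not tested. Of the distal hormones, Gcg and Nts did not pass at 0.67 and 0.18 and Pyy and Insl5 were too low to test, while DESeq2 and limma-voom each called Gcg, and Gcg passed without cKO replicate 4 or WT replicate 2 (adjusted p of 0.00958 to 0.0320). Of the proximal hormones Ghrl was higher by 0.68 (adjusted p = 0.0029), and without WT replicate 2 Gip and Cck passed too (0.41 and 0.69).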

How the data were processed

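Polyadenylated RNA of crypts from 5 WT and 5 Arid3a cKO mice was sequenced. Per the labels and the study's methods, the authors aligned reads with STAR to GRCm38 and quantified genes with RSEM, and deposited for each library an expected count, not normalised between libraries, and TPM, scaled within each library by gene length. RSEM splits reads shared by several genes. The strand setting is not given in the sources used here. Fits without a library, a filter or with another tool adjust over the genes that fit tested.

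Expected counts were rounded and tested in R 4.3.3 with edgeR 4.0.16 (filterByExpr with minimum count 10 and minimum total 15, TMM, robust quasi-likelihood fit on genotype, Benjamini-Hochberg adjustment, threshold 0.05). Levels of single genes were compared by two-sided exact permutation over 252 assignments on log2(CPM + 0.5). The labels do not say that animals were littermates, and p-values set the difference between genotypes against the spread between these animals. Totals of 27050455 to 31053622 counts leave genes below 1 CPM with few reads. Genes without a symbol held 0.019% of counts. The scripts were tested on simulated data.

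The 7 genes and all lists were chosen with earlier results of these data known. Named are the 7 genes, the genes of the bile acid and regional factor lists apart from some not reported here, the 3 most abundant genes of each other list where a result needs them, and the 3 genes most like each member with a mean of at least 1 CPM. Alternatives were RLE factors, library totals, DESeq2 1.42.0, limma-voom (limma 3.58.1), other filters, unrounded counts, an effective length offset, limma on log2 TPM, a replicate block and leaving out each animal.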

Additional observations from a re-analysis of the deposited data

How the results depend on the processing

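Slc10a2 was positive and not called in every alternative run, from 0.28 to 0.83 with 1 animal left out and from 0.058 to 0.51 otherwise. The numbers called among all genes and in the bile acid, regional factor and general enterocyte lists stayed within 1.5 times the main count, though not their split by direction, since higher genes were 55.1% of calls and 27.7% with library size only. Fabp6 reversed with library size only (-0.023), limma-voom (-0.19) and TPM with pseudocounts of 0.1 (-0.24) and 1 (-0.042), and ran from -0.054 to 0.39 with 1 animal left out. It had no value in 2 leave-one-out fits, and neither Fabp6 nor Slc10a2 had one under the strict filter. Slc51a passed with DESeq2 (1.00), limma-voom (1.15) and TPM with pseudocounts of 0.1 (1.06) and 1 (1.03), and Slc51b with limma-voom (1.55) and TPM (1.44 and 1.37), while leave-one-out values were 0.82 to 1.39 and 0.97 to 1.83. Nr1h4 lost its call with no filter (0.62), and leave-one-out gave 0.50 to 0.75. Nr0b2 lost it with library size only (0.58), no filter (0.71), the effective length (0.70) and TPM (0.58 and 0.41), and leave-one-out gave 0.54 to 0.87. The cause of these differences was not tested. Centring on the enterocyte genes subtracts 1.46 from every gene, which by construction gave values below 0 for Slc51a (-0.33), Slc51b (-0.0048, practically 0) and Nr1h4 (-0.82).

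Members called numbered 2, and 3 with DESeq2, 4 with limma-voom and 3 on TPM with either pseudocount. The number was 1 with library size only, 0 with no filter, 1 with the effective length, and 0 to 3 with 1 animal left out. The ileum-enriched count of 14 became 7 and the jejunum-enriched count of 20 became 11 with no filter, with leave-one-out ranges of 8 to 16 and 12 to 20. Distal hormone calls went from 0 to 1 with DESeq2 and limma-voom, and leave-one-out gave 0 to 1, 1 to 3 for proximal hormones and 1 to 4 for crypt genes.

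Same-numbered libraries had correlations of -0.16 to 0.13, and 0 of 5 correlated best with its own number. Such correlations cannot show whether the replicate numbers pair the animals, and the labels give only the numbers. With the replicate block, Nr1h4 stayed called at 0.66 (SE 0.14, adjusted p = 0.01625) and was the 1 member called, while Nr0b2 at 0.71 was not. The ileum-enriched and jejunum-enriched counts were 9 and 12. Depth limits Slc10a2, Fabp6 and Fgf15, which had at most 28 counts in a library.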
